A study of Homo sapiens with 3 samples.

Results

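The comparison set RNA from A549 cells given cordyceps against RNA from cells given vehicle, on the part of the arrays outside 1 corner of the slide surface. It used 2 of the 3 samples of the series, 1 array per condition (n = 1), and 47374 of the 58194 probes, which stood for 19401 of 22436 named genes. The probes were chosen by position alone: spots in rows above 240 of 384 and at the same time in columns above 82 of 164 were left out, because that corner of the cordyceps array carried an excess of spots flagged for an outlying local background. A549 is an established human lung adenocarcinoma line. The cultures received 100 μg/mL cordyceps or 0.1% DMSO for 48 h, and a further culture received cordycepin (an adenosine analog first isolated from a Cordyceps fungus) at 60 μg/mL. All cultures grew in serum-containing DMEM with penicillin-streptomycin that also held nicotinamide, troglitazone and zinc sulfate, so the vehicle cells carried these agents too. The labels give neither the species nor the kind of preparation behind the word cordyceps. They also do not state its solvent, so whether the vehicle culture matched it in DMSO is not known. With 1 array a side there was no replicate error and no test, and every difference below is a difference between 2 arrays.

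Proteins that enter the secretory pathway fold in the endoplasmic reticulum (ER) with the help of chaperones. When unfolded proteins build up there, the sensors ERN1 (IRE1), ATF6 and EIF2AK3 (PERK) start the unfolded protein response, in which ATF6 and XBP1 switch on chaperone and degradation genes while EIF2AK3 slows translation and lets the factor ATF4 be made. ATF4 in turn acts on genes of amino acid supply and on DDIT3, which encodes the factor CHOP. Dividing cells switch on genes of DNA replication through E2F factors and later the genes of mitosis.

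Of the 36 gene lists, that of ER chaperones and ER-associated degradation had the largest share of members called higher, while the ATF4 and CHOP list had the largest median ratio. Of its 29 measured members, 19 (65.5%) reached 2-fold higher with cordyceps and 0 reached 2-fold lower, whereas 3.34% of the 13233 named genes measured with vehicle, cordyceps or both were called higher and 2.22% lower. The median log2 ratio of the list was 1.20, against 0.01 over all 11844 genes measured on both arrays. HSPA5, which encodes the chaperone BiP, had a processed signal of 2560 on the vehicle array and 17397 on the cordyceps array, 7.35-fold higher. HERPUD1, a membrane component of ER-associated degradation, went from 11334 to 79789, 7.62-fold higher, and CRELD2, an ER protein of the calcium-binding EGF type, from 3379 to 17339, 5.55-fold higher. CHAC1, an enzyme that degrades glutathione and an ATF4 and CHOP target, went from 293 to 2330, 8.60-fold higher.

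The promoters of these 4 genes are shown because known response motifs of the unfolded protein response lie in them. They run from 250 bases before to 50 bases after the annotated start in RefSeq (GRCh38.p14) and are written 5′ to 3′ on the strand of the gene, with motif matches in capitals. The motifs searched on both strands were the ER stress response element ERSE (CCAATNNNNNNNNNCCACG), the related ERSE-II (ATTGG, then N, then CCACG) and the amino acid response element bound by ATF4 and C/EBP factors (TGATGNAA), with N for any base. HSPA5 (chr9:125241294-125241593, minus strand) holds ERSE and CRELD2 (chr22:49918384-49918683, plus strand) holds it on the opposite strand. HERPUD1 (chr16:56931892-56932191, plus strand) holds ERSE-II and, on the opposite strand, TGATGNAA, and CHAC1 (chr15:40953221-40953520, plus strand) holds TGATGNAA on the opposite strand.
HSPA5: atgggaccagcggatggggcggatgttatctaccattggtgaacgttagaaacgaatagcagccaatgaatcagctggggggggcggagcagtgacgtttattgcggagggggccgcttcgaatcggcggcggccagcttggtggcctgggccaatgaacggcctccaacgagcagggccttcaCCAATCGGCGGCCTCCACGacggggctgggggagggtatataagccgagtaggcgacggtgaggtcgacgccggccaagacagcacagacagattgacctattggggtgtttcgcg
HERPUD1: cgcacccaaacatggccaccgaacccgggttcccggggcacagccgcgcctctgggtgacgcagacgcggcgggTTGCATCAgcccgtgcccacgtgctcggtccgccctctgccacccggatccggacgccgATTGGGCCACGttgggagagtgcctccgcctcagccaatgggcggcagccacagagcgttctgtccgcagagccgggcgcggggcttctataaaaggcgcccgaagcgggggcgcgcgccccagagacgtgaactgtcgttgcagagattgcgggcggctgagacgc
CRELD2: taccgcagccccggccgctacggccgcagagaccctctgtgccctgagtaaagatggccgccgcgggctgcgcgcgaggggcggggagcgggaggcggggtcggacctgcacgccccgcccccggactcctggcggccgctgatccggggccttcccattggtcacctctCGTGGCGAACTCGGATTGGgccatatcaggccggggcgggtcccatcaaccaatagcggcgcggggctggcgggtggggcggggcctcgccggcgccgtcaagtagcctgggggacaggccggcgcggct
CHAC1: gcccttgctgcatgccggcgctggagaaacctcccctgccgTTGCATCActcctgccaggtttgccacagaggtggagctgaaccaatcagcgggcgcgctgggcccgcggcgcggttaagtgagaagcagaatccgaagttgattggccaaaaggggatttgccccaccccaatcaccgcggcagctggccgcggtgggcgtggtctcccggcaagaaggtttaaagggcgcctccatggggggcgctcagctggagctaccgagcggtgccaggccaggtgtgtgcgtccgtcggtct

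ERSE occurred in 22 of 27305 promoters of the table (0.0806%) and in 6 of the 28 promoters of the ER list (21.4%), namely those of HSPA5, HSP90B1, CALR, PDIA6, CRELD2 and ERO1B. ERSE-II occurred in 17 promoters of the table (0.0623%) and in 3 of the ER list, those of SDF2L1, HERPUD1 and HYOU1. TGATGNAA, a short motif, occurred in 3.75% of all promoters and in 3 of 21 promoters of the ATF4 and CHOP list (14.3%), those of ATF3, CHAC1 and FGF21. In the ER list it occurred in 1 of 28 promoters (3.57%), that of HERPUD1, which is near the share of all promoters. A match describes the letters of the window and not the use of a site. Of the 9 ER genes with ERSE or ERSE-II, 6 were at least 2-fold higher with cordyceps (HSPA5, HSP90B1, CRELD2, SDF2L1, HERPUD1 and HYOU1), CALR and PDIA6 had log2 ratios of 0.81 and 0.47, and the probes of ERO1B lay in the corner. In the whole ER list 19 of 29 measured members were at least 2-fold higher.

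Over the whole array outside the corner, 818 of 23329 measured probes (3.51%) were called higher with cordyceps and 516 (2.21%) were called lower. A probe counted as measured when the scanner software called it well above background. Where that held on both arrays the ratio was measured, and where it held on 1 array the call was a bound, the bright value set divided by whichever was larger on the dim array, the lowest detected signal there or what the probe itself read. Of the higher probes 592 were measured on both arrays and 226 were bounds, while the lower ones comprised 351 with both values and 165 bounds. The lowest detected signal was 34.5 on the cordyceps array and 18.6 on the vehicle array, so all 226 probes detected with cordyceps alone passed 2-fold, while 3853 probes were detected with vehicle alone. By gene, with the brightest probe standing for a gene, 442 of 13233 were higher and 294 lower, 364 and 222 of them measured on both arrays. The interquartile range of the gene ratios lay between log2 ratios of -0.25 and 0.27.

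**Figure D1:**
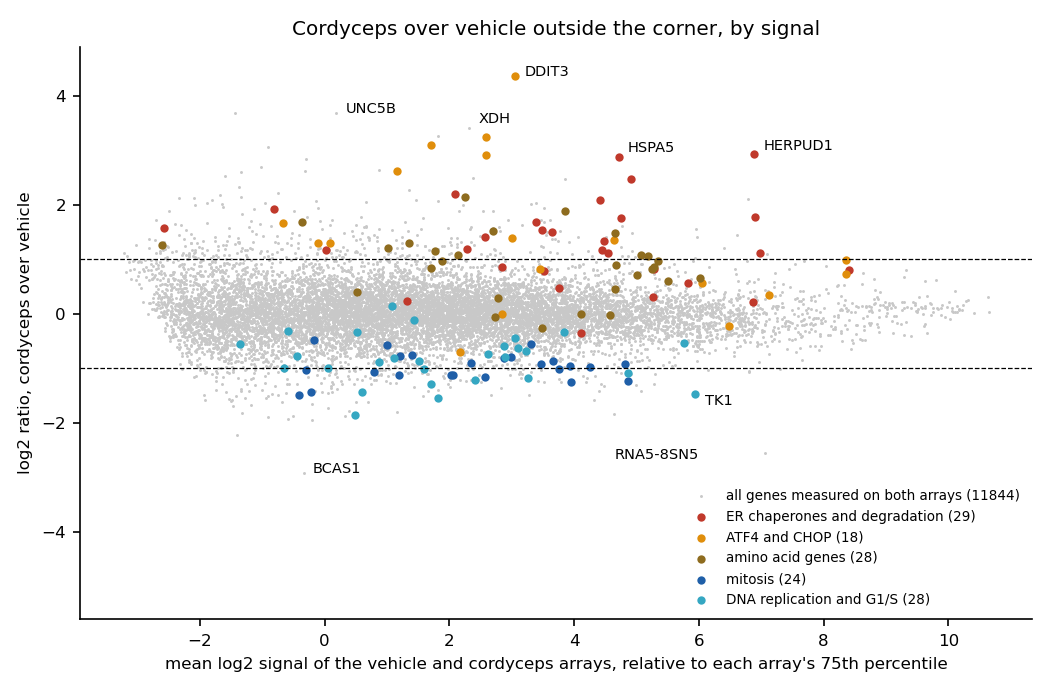
Log2 ratio of cordyceps over vehicle (vertical axis) against the mean log2 signal of the 2 arrays relative to each array's 75th percentile (horizontal axis) for 11844 genes measured on both arrays, with the members of 5 gene lists in colour and dashed lines at 2-fold. The ER, ATF4 and CHOP, and amino acid lists lie mostly above 0 at all signal levels and all 24 mitosis genes lie below 0.

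The arrays gave the following picture of quality. The 75th percentile of signal was 264 with vehicle, 227 with cordycepin and 244 with cordyceps, 41.1% to 48.8% of probes were detected, and no spot was saturated (0 on each array). The 3 arrays shared a slide and a scan. Epithelial and A549 markers were present, with all 10 identity genes outside the corner measured on both arrays. Of leukocyte, endothelial and fibroblast markers, CD3E, TEK, COL3A1, DCN, LUM and PDGFRB were not above background on either array, while CD14 (3387 with vehicle and 2183 with cordyceps), PTPRC (99.5 and 72.9) and ACTA2 (619 and 560) were measured on both, and PECAM1 and VWF on the vehicle array alone. The brightest probe of CDKN2A, a locus that A549 cells are known to lack, read 4587 with vehicle and 2881 with cordyceps, whereas its other probe and CDKN2B were not above background. In bulk RNA of this kind, fewer cells of a type and less RNA per cell cannot be told apart.

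Technical error could be gauged in part. For the log2 ratio of 1 probe the SD was 0.21, from the 2 brightest probes of 2404 genes, and 0.29 as a root mean square. Of 60 genes called higher on both arrays that had a second measured probe, the second probe was higher for 54, and of 27 called lower it was lower for 24, against 54.5% and 45.5% of all second probes. This error leaves out differences between cultures, which 1 array per condition cannot show.

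Several ER chaperones and co-chaperones beside HSPA5 were higher. HSP90B1, the ER member of the HSP90 family, read 1957 with vehicle and 5151 with cordyceps, 2.85-fold higher. HYOU1, a nucleotide exchange factor and chaperone, read 77.6 and 272, 3.79-fold higher. Of J-domain co-chaperones of BiP, 3 were higher: DNAJB9 by 4.25-fold (2730 and 10723), DNAJC3 by 2.66-fold (967 and 2374) and DNAJB11 by 2.52-fold (3699 and 8619). MANF, a secreted ER stress protein, read 16969 and 53667, 3.42-fold higher, and SDF2L1 read 22530 and 45258, 2.17-fold higher. The lectin chaperones CALR and CANX had log2 ratios of 0.81 and 0.79, and the disulfide isomerases PDIA3 and PDIA6 of 0.83 and 0.47, all under 2-fold.

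Genes of ER-associated degradation were higher as well. SYVN1, the ubiquitin ligase of this pathway, read 3862 with vehicle and 12082 with cordyceps, 3.38-fold higher. Its partner SEL1L was 3.21-fold higher (1540 and 4567), and a second probe of SEL1L was also higher. SELENOS was 2.92-fold higher (1726 and 4660), SELENOK 2.25-fold (3849 and 8007), EDEM1 2.27-fold (178 and 373) and DERL2 2.18-fold (4168 and 8403). DERL1, OS9 and SEC61B stayed between 0.22 and 0.31 on the log2 scale, and DERL3, at -0.35, was the only member measured below 0. SEC24D, a coat protein of vesicles that leave the ER, was 4.58-fold higher (524 and 2223), and WFS1 2.30-fold higher (849 and 1803). The sensor ERN1 was dim, with 25.6 and 70.4, and 2.98-fold higher. In 1 alternative setting its log2 ratio was 0.73, under 2-fold. The factor genes ATF6 and XBP1 had log2 ratios of 0.85 and 0.57. The probes of PDIA4 and ERO1B lay in the corner and ERO1A had no matched probe, which accounts for all 32 members.

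The list of ATF4 and CHOP regulators and effectors held 18 measured genes, of which 10 (55.6%) reached 2-fold higher and 0 reached 2-fold lower, with a median log2 ratio of 1.30. DDIT3 was the gene with the largest measured ratio outside the corner, with a signal of 482 on the vehicle array and 9213 on the cordyceps array, 20.7-fold higher. ATF3, another stress-induced factor of the same family, went from 517 to 4542 by its brightest probe, 9.50-fold higher. Its other probe measured on both arrays had a log2 ratio of -0.39, and a further probe was detected with cordyceps alone. PPP1R15A, whose protein GADD34 directs the dephosphorylation of eIF2α, was 6.13-fold higher (239 and 1355). NIBAN1, a stress-induced protein, was 7.57-fold higher (575 and 4024), and SESN2, a leucine sensor upstream of mTORC1, 3.17-fold higher (93.8 and 275). NUPR1, CEBPG, ATF5 and the kinase gene EIF2AK3 were 2.62-fold, 2.56-fold, 2.46-fold and 2.45-fold higher. ATF4 itself had a log2 ratio of 0.74, GDF15 of 0.98, and CTH, of the transsulfuration pathway, of -0.69. TRIB3, STC2, INHBE and EIF2AK4 lay in the corner, ADM2 had no matched probe, and FGF21 was not above background on either array.

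**Figure D2:**
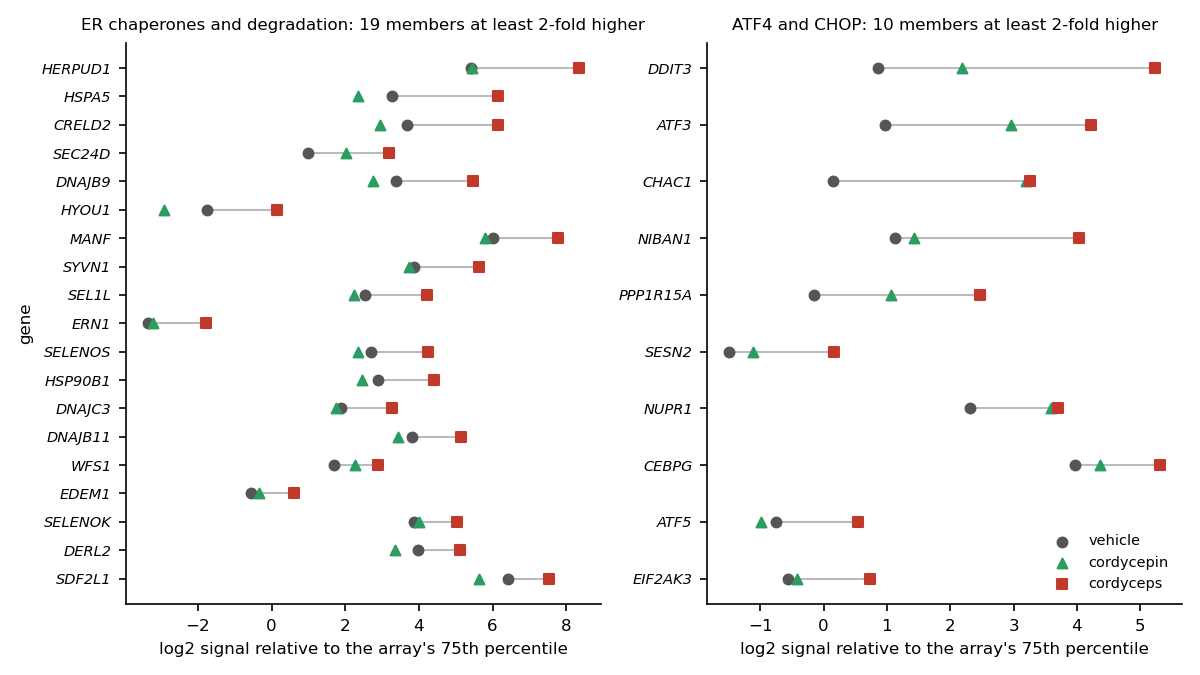
Log2 signal relative to each array's 75th percentile (horizontal axis) of the 19 ER genes (left) and 10 ATF4 and CHOP genes (right) that were at least 2-fold higher with cordyceps, on the vehicle (grey circles), cordycepin (green triangles) and cordyceps (red squares) arrays, 1 array each. HSPA5 lies at 3.28 with vehicle and 6.15 with cordyceps, and DDIT3 at 0.87 and 5.24.

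Genes of amino acid synthesis, transport and tRNA charging followed. Of 28 measured members 12 (42.9%) reached 2-fold higher and 0 reached 2-fold lower, with a median log2 ratio of 0.94, and 24 of 28 were above 0. With median scaling 18 were higher and with normexp 8, and 0 were lower with either. Among the tRNA synthetases, AARS1 went from 599 to 2438, 4.40-fold higher, GARS1 was 2.86-fold higher, YARS1 2.31-fold and IARS1 2.08-fold, while VARS1 had a log2 ratio of -0.27. Among transporters, SLC3A2, the heavy chain shared by several amino acid exchangers, went from 1981 to 6747, 3.68-fold higher, and SLC1A4, SLC7A1 and SLC1A5 were 2.41-fold, 2.23-fold and 2.11-fold higher. SLC1A4 was dim, at 28.0 and 62.3, and in 1 alternative setting its log2 ratio was 0.55, under 2-fold. Among enzymes, the mitochondrial folate enzymes ALDH1L2 and MTHFD2 were 3.23-fold and 2.82-fold higher (114 and 341, 3950 and 10281), GPT2 was 2.46-fold higher, from a spot with an outlying local background on both arrays, and CBS, which makes cystathionine, 2.11-fold. The serine synthesis genes PHGDH and PSPH had log2 ratios of 0.29 and -0.01. The other 4 members, ASNS, PSAT1, WARS1 and CARS1, lay in the corner.

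The array with cordycepin shares its vehicle array with this comparison and was given at another dose, so its values are set beside these as a description. Over all genes, 5.85% of 13599 measured with cordycepin or vehicle reached 2-fold higher with cordycepin and 3.53% 2-fold lower, and the median log2 ratio was -0.05. With cordycepin the ER list had 1 member higher and 1 lower of 29, with a median log2 ratio of -0.35. HSPA5 read 1163 on the cordycepin array, against 2560 with vehicle and 17397 with cordyceps. HERPUD1 read 9801 there, a log2 ratio of 0.01 over vehicle. The ATF4 and CHOP list had 6 members higher and 1 lower of 18 with cordycepin (median 0.34), and the amino acid list 0 in either direction of 28 (median 0.10). DDIT3 read 1038 on the cordycepin array, 2.50-fold above vehicle, and CHAC1 read 2075, 8.23-fold above vehicle.

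Inflammatory genes were higher too. Of 30 measured members of the NF-kB and inflammatory list, 13 (43.3%) were at least 2-fold higher with cordyceps and 0 lower, with a median log2 ratio of 0.87. The cytokine genes IL6 and IL1A went from 195 to 1118 and from 73.0 to 316, 6.22-fold and 4.67-fold higher. TNF was dim on both arrays (37.8 and 86.7) and 2.48-fold higher, and in 1 alternative setting its log2 ratio was 0.63, under 2-fold. The neutrophil chemokines CXCL8 and CXCL2 were 2.88-fold (1092 and 2905) and 2.66-fold higher (10134 and 24946), and LCN2, an iron-siderophore binding protein, was 2.94-fold higher (9568 and 26032). The feedback inhibitor TNFAIP3 and the adaptor kinase IRAK2 were 2.99-fold and 3.32-fold higher. CCL2 and CXCL5 had log2 ratios of -0.30 and -0.33. SAA2 read 474 with vehicle, 1059 with cordyceps and 29481 with cordycepin, and it is a near-identical paralog of SAA1, which had log2 ratios of 0.72 with cordyceps and 5.23 with cordycepin. With median scaling 22 of the 30 were higher with cordyceps. On the cordycepin array 15 of 31 members reached 2-fold above vehicle and the median was 0.81. CSF2 was not above background with vehicle or cordyceps, and CX3CL1 had no matched probe.

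Genes of mitosis were lower as a group. All 24 measured members had a log2 ratio below 0 with cordyceps, between -1.48 and -0.48, and 11 (45.8%) were at least 2-fold lower, against 2.22% of all genes. The median log2 ratio was -0.96. With median scaling, which raises the median of all genes to 0.29, 2 of the 24 were at least 2-fold lower, and with the corner kept 20 of 30. AURKB, the kinase of the chromosomal passenger complex, read 331 with vehicle and 110 with cordyceps, 2.79-fold lower, and its partner BIRC5 read 11753 and 4613, 2.36-fold lower. CCNA2 (cyclin A2) was 2.70-fold lower (371 and 127), CDK1 2.24-fold (2349 and 969) and CCNB1 (cyclin B1) 2.0-fold (5033 and 2321). MKI67, the gene of the proliferation marker Ki-67, was 2.17-fold lower (894 and 381), and a second probe was also lower. The factor FOXM1, which acts on many mitotic genes, was 2.10-fold lower (663 and 291). With spots of outlying local background left out, AURKA and CDC20, which were under 2-fold, had no value, and 11 of the other 22 were lower. ASPM, KIF11, DLGAP5 and CENPF were 2.38-fold, 2.17-fold, 2.17-fold and 2.04-fold lower. TOP2A, BUB1, BUB1B, KIF20A, NUSAP1 and NDC80 lay in the corner and PLK1 had no matched probe.

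Genes of DNA replication and the G1/S transition were lower as well, with 12 of 32 measured members (37.5%) at least 2-fold lower, 0 higher, and a median log2 ratio of -0.80. Of the 28 measured on both arrays 27 were below 0, and CCND1 (cyclin D1) was at 0.14. With median scaling 7 were lower. The helicase loading and activation genes MCM4, MCM6 and MCM3 were 2.69-fold (660 and 227), 2.30-fold (2127 and 854) and 2.25-fold lower (3808 and 1563). The GINS complex genes GINS2 and GINS1 were 3.61-fold (706 and 181) and 2.91-fold lower (1594 and 506), while GINS3 was at -0.11. TK1, the S-phase thymidine kinase, went from 27111 to 9023, 2.78-fold lower, PCNA from 11137 to 4885, 2.11-fold lower, CHAF1A from 1353 to 513, 2.44-fold lower, and CDC45 from 1128 to 518, 2.01-fold lower. E2F1, RRM2 and MCM10 were not well above background on the cordyceps array and at least 5.44-fold, 4.19-fold and 2.37-fold lower. With normexp their log2 ratios were -1.26, -0.95 and -0.49, and with median scaling that of MCM10 was -0.96, so that RRM2 and MCM10 fell under 2-fold. CCNE2 was also measured with vehicle alone, with a bound under 2-fold. TYMS and E2F2 lay in the corner, and CDC6 was not above background on either array.

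On the cordycepin array, 0 of 24 mitosis genes passed 2-fold in either direction, with a median log2 ratio of 0.40 and 22 of 24 above 0. For replication, 2 of 33 were higher and 0 lower, with a median of 0.35.

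**Figure D3:**
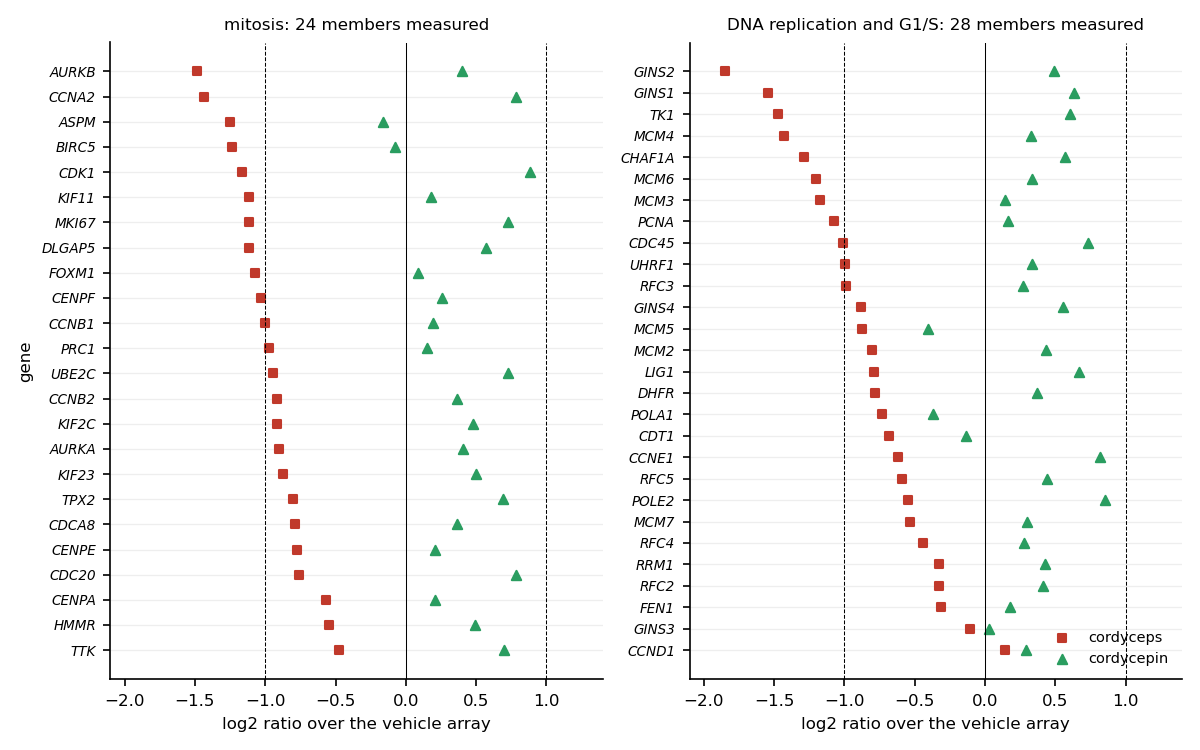
Log2 ratios over the shared vehicle array (horizontal axis) of 24 mitosis genes (left) and 28 DNA replication and G1/S genes (right), with cordyceps as red squares and cordycepin as green triangles, and dashed lines at 2-fold. With cordyceps all 24 mitosis genes and 27 of 28 replication genes lie below 0.

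Replication-dependent histone genes, whose transcripts peak in S phase, had a median log2 ratio of -0.41, with 32 of the 39 measured on both arrays below 0 and 1 of 41 at least 2-fold lower, H1-5 (162 and 50.4, 2.97-fold). Many histone genes are near-identical copies, so their probes may share transcripts. Cytosolic heat shock genes had a median of -0.59, with 15 of 17 below 0 and 0 at least 2-fold higher. HSPA1A and HSPA1B, near-identical copies that encode the inducible HSP70, were 2.43-fold (16002 and 6096) and 2.29-fold lower (5417 and 2185), and the 3 probes of HSP90AA1 had log2 ratios of -0.69, -0.99 and -1.02. Of 23 measured NRF2 antioxidant genes 0 passed 2-fold in either direction (median -0.21, and 0.07 with median scaling), beside 3.34% of all genes higher and 2.22% lower.

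**Figure D4:**
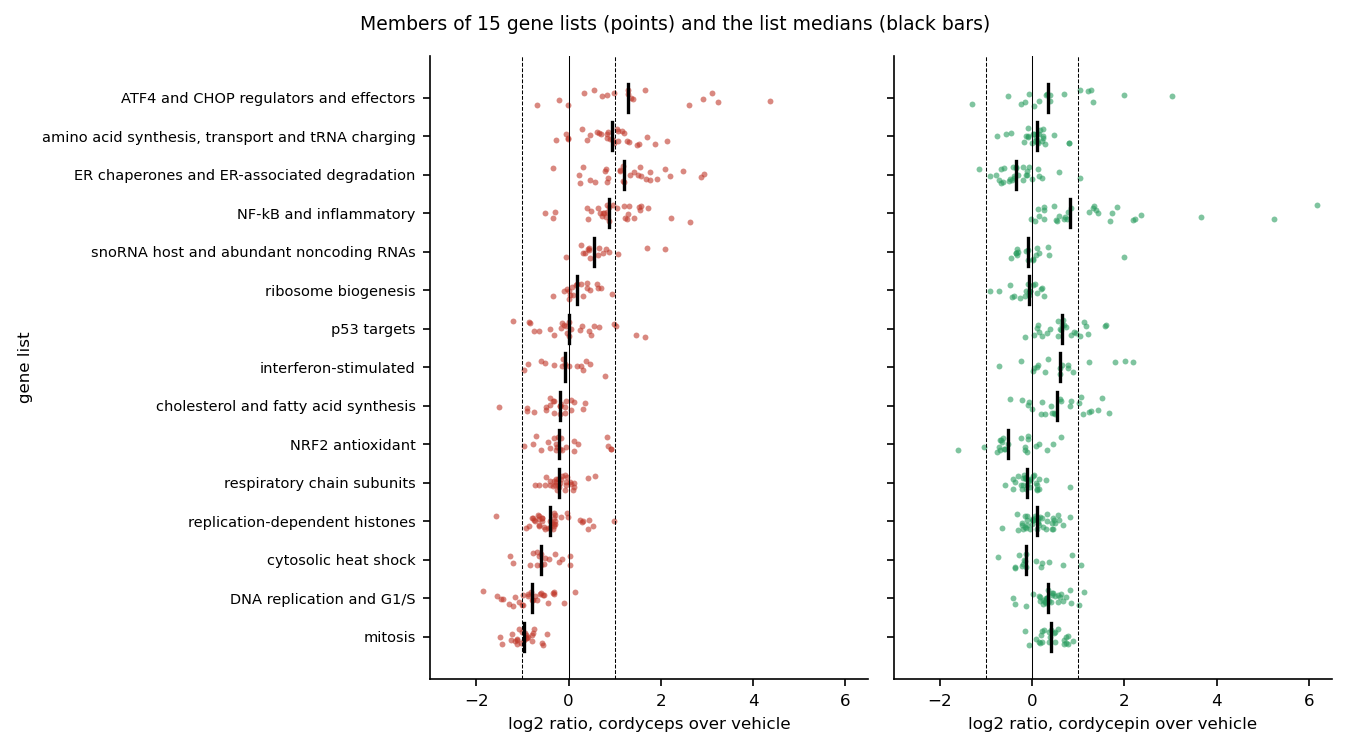
Log2 ratios of the members of 15 gene lists measured on both arrays of the comparison (points) and the list medians (black bars), for cordyceps over vehicle (left) and cordycepin over vehicle (right), which share the vehicle array and differ in dose. Dashed lines mark 2-fold. With cordyceps the medians run from 1.30 for the ATF4 and CHOP list to -0.96 for mitosis.

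Genes of p53 signalling and cell death moved in no common direction. Of 25 measured p53 targets, 3 (12%) were at least 2-fold higher and 1 (4%) lower, against 3.34% and 2.22% of all genes. The higher ones were SESN2, GADD45A (2.74-fold, 1868 and 4733) and CDKN1A (2.05-fold, 142 and 269). POLH, a translesion polymerase, was 2.30-fold lower. CDKN1A was under 2-fold in 3 alternative settings, with a log2 ratio as low as 0.73, and POLH in 2, as near 0 as -0.80. The median of the list was 0.00, beside 0.65 with cordycepin. SESN2 also stands in the ATF4 list. Of 33 measured genes of the BCL2 family, caspases and death receptors, 1 was higher (the decoy receptor TNFRSF10C, 2.40-fold, 55.2 and 122) and 1 lower (the ligand TNFSF10, 2.13-fold, 205 and 89.1). Each is 3.03% of the list, near the shares over all genes, 3.34% higher and 2.22% lower. With normexp 0 were higher and 0 lower, and TNFRSF10C had a log2 ratio of 0.66. The log2 ratio of TNFSF10 was -1.09, and it was -0.68 with normexp, -0.81 with median scaling and 1.82 with the corner kept, where a probe inside the corner was its brightest. TNFRSF10B, which encodes the TRAIL receptor DR5, read 14433 and 19686, a log2 ratio of 0.56. BCL2L1, CASP8 and CASP9 lay between 0.01 and 0.09 on the log2 scale.

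For the proteins that the study follows, the transcripts differed by less than 2-fold on these arrays. By RT-PCR, the paper reports a slight rise of CAV1 RNA with cordycepin dose and time, and it describes its microarray result as the same. Its western blots show more CAV1 and Bax protein after cordycepin, which RNA signals do not measure. CAV1, which encodes caveolin-1, read 6882 with vehicle, 5483 with cordycepin and 4661 with cordyceps, a log2 ratio of -0.45 with cordyceps. MAPK8 (JNK1) read 81.8, 76.8 and 93.3, with 0.30. FOXO3 read 2844, 2518 and 3029, with 0.20 by its brightest probe and -0.21 by its other measured probe. BAX read 11901, 11136 and 7018, with -0.65, and its other measured probe was also lower. These signals are before scaling, and the 75th percentile was 264 with vehicle and 227 with cordycepin. Relative to each array's 75th percentile, MAPK8, FOXO3 and BAX were slightly above vehicle with cordycepin, and CAV1 was below it. Of the 13 measured genes of the caveolin, JNK and FOXO list, CAVIN2 alone passed 2-fold, at 162 with vehicle and 49.4 with cordyceps (3.03-fold lower) and 448 with cordycepin. With normexp its log2 ratio was -0.89, under 2-fold. Among netrin ligands and receptors, UNC5B, a dependence receptor, went from 83.6 to 1000, 12.9-fold higher, and read 506 with cordycepin. Its spot had an outlying local background on both the vehicle and the cordyceps array. NTN1 (netrin-1) read 79.4, 128 and 774 with vehicle, cordyceps and cordycepin.

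The 15 largest ratios above vehicle measured on both arrays, with other probes in the same direction where there were any, held 6 genes of the ATF4 and ER lists (DDIT3, CHAC1, HERPUD1, NIBAN1, HSPA5 and PPP1R15A). KLHDC7B was 12.9-fold higher (27.2 and 324), from a spot next to the corner, and its other probe was detected with cordyceps alone. XDH, which carries out the last steps of purine breakdown, was 10.7-fold higher (402 and 3964). IL23A, a subunit of interleukin-23, went from 299 to 2658, 9.61-fold higher, and read 217 with cordycepin. TNFRSF9, the receptor 4-1BB, was 8.38-fold higher (48.8 and 378), BCAT1, the cytosolic branched-chain aminotransferase, 7.21-fold (79.9 and 533), LAMP3, a lysosomal membrane protein, 6.47-fold (51.4 and 307), and the chemokine CCL17 6.16-fold (85.3 and 485). UNC5B and IL6 completed the 15. The growth factor genes AREG and EREG, ligands of the EGF receptor, were 2 further genes at least 2-fold higher, at 614 and 2271 (4-fold) and at 796 and 2740 (3.72-fold).

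Among the 15 largest ratios below vehicle, BCAS1 was first, with 574 on the vehicle array and 70.7 on the cordyceps array, 7.51-fold lower. The probe of RNA5-8SN5, a copy of 5.8S ribosomal RNA whose many genes share its sequence, read 85113 and 13362, 5.89-fold lower. MTMR8, of the myotubularin family, was 4.68-fold lower (215 and 42.5), PRR15L and the scaffold gene PDZK1 were each 3.83-fold lower, and NEB was 3.72-fold lower (272 and 67.7). CA9, a carbonic anhydrase switched on in hypoxia, was 3.65-fold lower (354 and 89.5), as was the noncoding LINC01474 (632 and 160). ANGPTL4, an inhibitor of lipoprotein lipase and PPAR target, was 3.57-fold lower (12454 and 3224). SPC25, of the kinetochore Ndc80 complex, was 3.46-fold lower (1102 and 294). GINS2, DEPP1, SGCA, LGALS2 and ADAM12 completed the list, between 3.21-fold and 3.61-fold lower, and with cordyceps the local background at the spot of DEPP1 was outlying. On the cordycepin array MTMR8 read 44.9, PRR15L 32, CA9 100 and NEB, there not well above background, 22, each also at least 2-fold below vehicle, whereas BCAS1 read 348 and SPC25 1402.

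The largest bounds came from genes detected on 1 array alone. Not well above background with vehicle, CDH15 (a cadherin of muscle) was at least 48.0-fold higher with cordyceps, where it read 828. GHRH, LIN28A, RERGL and RAB39B were at least 17.3-fold, 16.7-fold, 16-fold and 14.1-fold higher, at 242 to 297 with cordyceps, and a second probe of GHRH was not above background on either array. Not well above background with cordyceps, CACNG4 was at least 17.2-fold lower, MYO7A 13.4-fold, CCDC70 8.81-fold, STYK1 7.80-fold and TRIM10 7.79-fold. For MYO7A and TRIM10 another probe was measured on both arrays, with log2 ratios of -0.39 and -0.27.

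Calls were spread over the array outside the corner. In 52 blocks of an 8 by 8 grid, the median log2 ratio lay between -0.09 and 0.11, the share of measured probes at least 2-fold higher between 1.55% and 7.66%, and the share lower between 1.05% and 4.22%. Within 5 rows or columns of the corner 4.36% of 642 measured probes were higher, and more than 20 rows or columns away 3.51% of 20863. Some higher calls were crowded: 490 probes had at least 4 higher calls within 3 rows and 3 columns, and 37 of the 254 measured among them (14.6%) were higher, 21 as bounds. MANF lay in such a place, with 7 higher calls around it. Without these probes 781 probes and 426 genes were higher. Of 10 equal bins of probes by signal, the dimmest had 6.44% higher and 0.675% lower, and the brightest 1.51% and 0.935%.

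**Figure D5:**
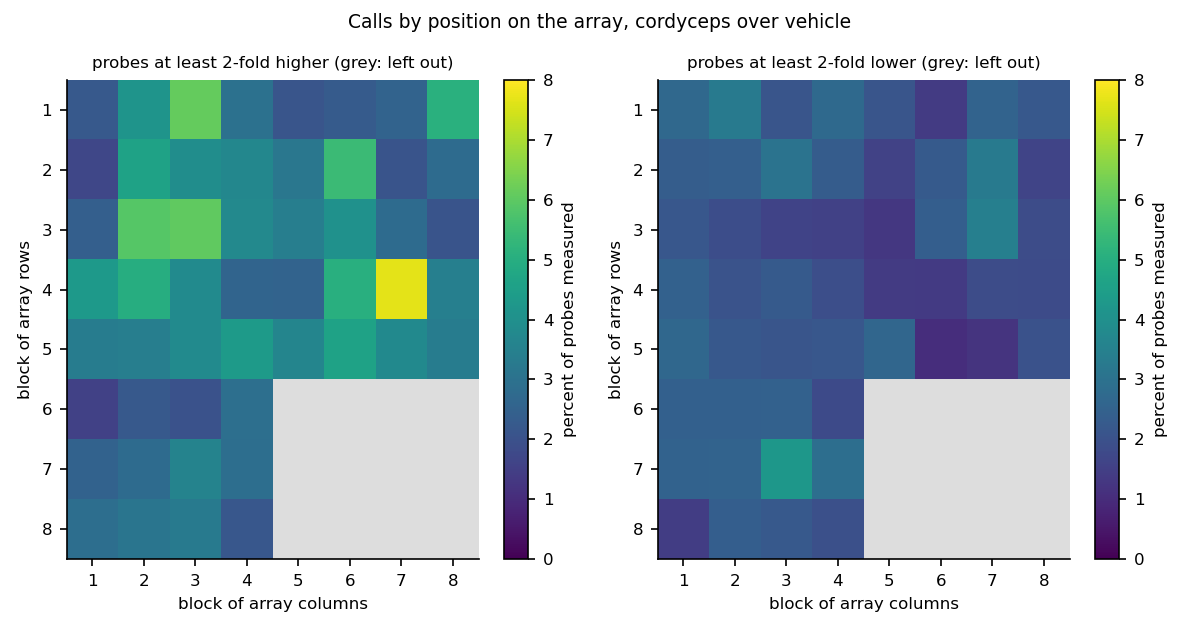
Share of measured probes at least 2-fold higher (left) and lower (right) with cordyceps in blocks of array rows and columns, in percent. The 52 blocks outside the corner (grey) hold 1.55% to 7.66% higher and 1.05% to 4.22% lower.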

How the data were processed

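RNA of A549 cells from 3 conditions was labelled with Cy3 and hybridized to 1 Agilent 1-colour array each. The authors deposited the scanner output, whose intensity values had been background-subtracted and spatially detrended by Agilent Feature Extraction 11.5.1.1 and not scaled between arrays, and a value table of the same intensities. The methods name Cy3 and Cy5 and GeneSpring for a cordycepin experiment, and the cordyceps array is known from the labels alone.

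Control spots, outlier spots (44 to 89 an array) and the corner were left out, log2 values were averaged over the spots of each probe, and each array's 75th percentile was subtracted. Printed signals are processed signals before this scaling. A probe was detected where the software called 50% or more of its spots well above background. The 2-fold calls, bounds and list summaries were computed in Python 3.11.15 with numpy 2.4.6 and pandas 2.3.3, and normexp in R 4.3.3 with limma 3.58.1 (offset 50). Probes were named through RefSeq accessions without versions, which matched 25360 of 47374 probes, and each gene took the values of its brightest probe. Probe coordinates were not used, since the array design and the RefSeq table use different builds.

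The genes named are the 15 largest ratios each way (leaving out genes with another measured probe of opposite sign), the 5 largest bounds each way, the members of 36 gene lists at least 2-fold changed or otherwise the 4 with the largest ratio, and CAV1, MAPK8, FOXO3 and BAX. Other list members were chosen after their values were seen, and some genes are not reported here. The comparison and the lists were chosen with earlier results of these data known. The calling steps were tested on simulated data. Alternatives covered scaling, background correction, detection, outlier spots, the corner, local centring, the value table, the probe of a gene and the threshold. Leaving out crowded spots was chosen after seeing the data. With 1 array per condition the number of arrays limits the precision, and no p-value was computed.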

Additional observations from a re-analysis of the deposited data

Results flagged for a closer look

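The corner that was left out held signals of its own on the cordyceps array. Of its 11419 non-control spots, the scanner software marked 11.2% for outlying local background with cordyceps, against 0% on the vehicle and cordycepin arrays and 3.16% of the spots outside it on the cordyceps array. With the corner kept, 14.7% of its 5931 measured probes were at least 2-fold higher with cordyceps and 2.87% lower, against 2.80% and 3.29% of the probes outside it in the same scaling. Probes printed 10 times, which are bright, differed little between spots inside and outside the corner, by a median of -0.02 on the log2 scale on the cordyceps array, with a range from -0.23 to 0.54.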

How the results depend on the processing

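Probes at least 2-fold higher numbered 818 in the main setting and 1504 with median scaling, 347 with normexp, 5146 with no detection filter, 1910 with detection by a positive and significant signal, 1523 with the corner kept, 2076 at 1.5-fold and 287 at 3-fold. Probes lower numbered 516, and 210, 208, 1984, 1984, 938, 2070 and 92 in the same order. Genes higher numbered 442, and 859 with median scaling, 216 with normexp, 1561 with no detection filter, 752 with a positive and significant signal, 1215 at 1.5-fold and 138 at 3-fold. Genes lower numbered 294, and 120, 140, 759, 759, 1110 and 49 in that order. With the corner kept 662 genes were higher and 496 lower. Median scaling raised the median of all genes from 0.01 to 0.29, and it moved the list medians to 1.58 (ATF4 and CHOP, 1.00 with normexp), 1.22 (amino acid), 1.48 (ER), 1.15 (NF-kB), -0.68 (mitosis) and -0.52 (replication). The share of higher among called probes was 61.3%, and 87.7% with median scaling, 46.0% with no scaling, 72.2% with no detection filter and 49.0% with a positive and significant signal. The netrin list, with 4 genes measured on both arrays, had a median of 0.36, and -0.091 with outlying local backgrounds left out, which drops UNC5B, and -0.060 with the corner kept. TNFSF10 was at -1.09, and at 1.82 with the corner kept.

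Across the alternative settings at 2-fold, some of which also change which members are measured, the ER list had 14 to 23 members higher and 0 lower, the ATF4 and CHOP list 9 to 13 and 0, the amino acid list 8 to 18 and 0, and the NF-kB list 10 to 22 and 0. The mitosis list had 2 to 20 lower and 0 higher, and the replication list 7 to 16 lower and 0 to 1 higher. Of the other list medians and named genes, 3715 values moved by less than the spread between probes and 388 by more. No paired analysis was possible because each group has 1 array.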

Other observations

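Several further gene groups outside the corner were measured. Host genes of small nucleolar RNAs and abundant noncoding RNAs had a median log2 ratio of 0.55 with cordyceps and -0.09 with cordycepin, and 15 of the 16 measured on both arrays were above 0. SNHG15 was 4.23-fold higher (117 with vehicle and 457 with cordyceps), SNHG1 3.23-fold (360 and 1075) and SNHG12 2.09-fold (5326 and 10273). H19 was not well above background with cordyceps and at least 2.41-fold lower. It was under 2-fold in 2 alternative settings, with a log2 ratio as near 0 as -0.57. Ribosome biogenesis genes had a median of 0.18 and cytosolic ribosomal protein genes of 0.13, with 0 of 19 and 0 of 33 past 2-fold. Respiratory chain genes had a median of -0.20, which turned to 0.08 with median scaling, with 23 of 30 below 0 and 0 past 2-fold. Over all genes 3.34% were at least 2-fold higher and 2.22% lower. Cholesterol and fatty acid synthesis genes had a median of -0.20, which turned to 0.09 with median scaling, over the 23 measured on both arrays, and 10 members lay in the corner. With cordycepin 8 of 24 were at least 2-fold higher.

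Among airway and tumour markers, KRT19 and ALDH3A1 were 2.19-fold and 2.21-fold lower with cordyceps, and the median of the 10 identity genes was -0.40. The vitamin D hydroxylase gene CYP24A1 was 2.12-fold lower (10422 and 4537) and read 3991 with cordycepin. In the matrix list TGFB2 was 2.05-fold lower and LTBP2 at least 2.30-fold lower. TGFB2 was under 2-fold in 3 alternative settings and LTBP2 in 2. In the hypoxia and glycolysis list VEGFA was 2.13-fold higher (1196 and 2355) and CA9 lower. Each is 1 of 29 measured members (3.45%), near the shares over all genes, 3.34% higher and 2.22% lower. A second probe of VEGFA had a log2 ratio of 0.67, under 2-fold, and the gene was under 2-fold in 3 alternative settings. Of the PPAR list, CREB3L3, an ER-anchored factor, was 2.38-fold higher (646 and 1421), and ARRDC3 of the arrestin-domain list was 2.46-fold higher. The interferon (18 measured), metallothionein (6), early response (17), adenosine and purine (10), autophagy and lysosome (26) and junction (15) lists had 0 members past 2-fold. With 3.34% of all genes higher and 2.22% lower, lists this short would hold few calls in any case. In the FOXO target list 2 of 14 measured members (14.3%) were higher, SOD2 and GADD45A, which other lists share.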
